A study of Homo sapiens with 12 samples.

Results

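The HSP70 and HSP110 genes were read on 12 arrays of A549 monolayers, in groups of 3. A549 is a human lung adenocarcinoma line used as a model of lung epithelium. The members were 10 cytosolic, nuclear or mitochondrial HSP70 and HSP110 genes, each measured through a probe set annotated to 1 gene symbol. These were HSPA1B, HSPA6, HSPH1, HSPA4, HSPA8, HSPA9, HSPA14, HSPA1L, HSPA2 and HSPA4L. Other HSP70 superfamily genes, such as HSPA12A, were kept as a list apart. The members are 10 of the 18132 genes tested. They were chosen by symbol, and together they had 37 probe sets. The study compared untreated monolayers (control), monolayers heat shocked for 2 h, monolayers with multiple wounds at 4 h, and monolayers heat shocked and then wounded, called "both" here. All groups shared the same line, medium and uncoated plastic. The study asked how a heat shock response bears on the wound response of lung epithelium. The collection time of the heat-shock-only monolayers is not in the labels. Nothing in them ties the replicate arrays to separate cultures either, so the p-values measure only the spread between these samples, which may be technical. The descriptions give replicates 1 and 2 of every group a shared tag, S2, and replicate 3 the tag S3, without saying what the tags stand for.

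HSP70 proteins are chaperones that bind unfolded stretches of other proteins and release them in a cycle driven by ATP. J proteins deliver the client and start ATP hydrolysis, and nucleotide exchange factors release ADP so that the client leaves. The HSP110 proteins HSPH1, HSPA4 and HSPA4L are distant HSP70 relatives that act as such exchange factors. After heat shock the factor HSF1 forms trimers that bind heat shock elements, which are inverted repeats of the unit GAA before the start sites of its target genes. The members were grouped, from general knowledge, as inducible (HSPA6, HSPA1B and HSPH1), testis-type (HSPA1L, HSPA2 and HSPA4L) and constitutive (HSPA4, HSPA8, HSPA9 and HSPA14). HSPA4L is also known as a heat-inducible gene in somatic cells.

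The stretches before the start sites of 3 members are shown. These stretches carry matches to heat shock elements in genes whose levels differed after heat shock. HSPA4L also differed and has a match in a window, but is not shown. The stretches come from the RefSeq promoter table of build GRCh38.p14. They are read 5′ to 3′ on the strand of the gene and end at the base before the annotated start site. Capitals mark matches to heat shock elements of 2 or 3 units.
HSPA6, chr1:161524290-161524539, plus strand: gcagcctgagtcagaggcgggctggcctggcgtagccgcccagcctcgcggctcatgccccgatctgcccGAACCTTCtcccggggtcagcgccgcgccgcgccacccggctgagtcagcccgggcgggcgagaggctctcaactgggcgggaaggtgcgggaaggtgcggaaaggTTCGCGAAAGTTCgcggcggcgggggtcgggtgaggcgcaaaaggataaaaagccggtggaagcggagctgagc
HSPA1B, chr6:31827488-31827737, plus strand: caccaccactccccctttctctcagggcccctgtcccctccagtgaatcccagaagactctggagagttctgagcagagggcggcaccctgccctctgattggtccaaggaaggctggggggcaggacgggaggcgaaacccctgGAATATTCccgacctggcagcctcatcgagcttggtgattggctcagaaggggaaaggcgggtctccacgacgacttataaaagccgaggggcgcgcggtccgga
HSPA1L, chr6:31815284-31815533, minus strand: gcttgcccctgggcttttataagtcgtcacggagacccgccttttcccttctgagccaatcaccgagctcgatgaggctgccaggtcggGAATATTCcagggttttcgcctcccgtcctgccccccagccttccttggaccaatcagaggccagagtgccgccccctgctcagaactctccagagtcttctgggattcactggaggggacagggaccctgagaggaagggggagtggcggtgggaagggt

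For HSPA8, the constitutive member with 2 elements of 3 units, 30 bases around each element are shown with the element in capitals, since its change after heat shock is given beside that of HSPA6. Both stretches lie on the minus strand.
HSPA8 distal element, chr11:123062346-123062375: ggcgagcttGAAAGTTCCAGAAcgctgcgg
HSPA8 proximal element, chr11:123062171-123062200: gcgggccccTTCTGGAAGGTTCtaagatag

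The search covered windows of 300 bases, from 250 before to 50 after each start site, on both strands, and 9 of 10 members matched the table with 11 windows (HSPA4L had 3 start sites). The motif letters were GAANNTTC and TTCNNGAA for 2 units, and GAANNTTC followed by NNGAA, or on the other strand TTCNNGAA followed by NNTTC, for 3 units. A match to 3 units also contains both matches to 2 units. An element of 3 units stood in the windows of HSPA6 (from -74 to -62) and HSPA8 (from -230 to -218 and from -55 to -43). Of all 35116 windows in the table, 172 held one (0.49%). A match of 2 units in either form stood in 6 of the 11 windows of the members, beside 13.5% of all windows. These windows belonged to 6 members. Beside HSPA6 and HSPA8 these members were HSPA1B (from -105 to -98), HSPA1L (from -161 to -154), HSPA9 (across the start site) and 1 window of HSPA4L (from -170 to -163). The windows of HSPH1, HSPA4 and HSPA2 and the other windows of HSPA4L held no match to these letters. For HSPA2 and HSPA8 the annotated gene reaches upstream of the start site that the window used. The stretch before those outer ends was not searched, and the distal element of HSPA8 lies within the annotated gene. A match is a description of the letters, and binding was not measured.

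**Figure D1:**
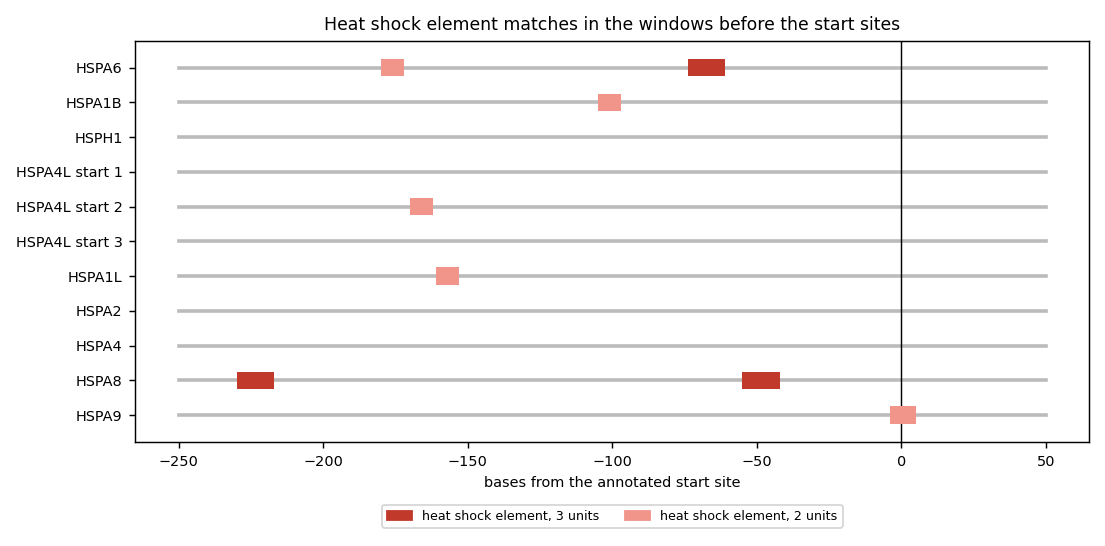
Each grey line is 1 window before and after an annotated start site (x axis in bases from the start site), and coloured bars mark matches to heat shock elements of 3 units (dark) and 2 units (light). Elements of 3 units appear in the windows of HSPA6 and HSPA8 alone among the members shown.

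The HSPA1L start site lies 260 bases from that of HSPA1A, its neighbour on the opposite strand, and 12455 bases from that of HSPA1B. The HSPA1L window read on the other strand matched the HSPA1B window at 226 of 238 aligned bases. The element GAATATTC stands in both windows, and its letters read the same on either strand. The HSPA1L stretch shown above lies between the start sites of HSPA1L and HSPA1A. The element there stands before both genes and cannot be assigned to HSPA1L alone. HSPA1A is not analysed here as a gene of its own.

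Heat shock alone raised 6 members and lowered 2 of 10. Of all genes, 4.93% were called higher and 7.92% lower, 12.9% in all, so that 38.4% of the calls were higher (49.6% with cyclic loess). All 3 inducible members rose, by 2.03 to 5.79 on the log2 scale. Among the testis-type members HSPA4L and HSPA1L rose and HSPA2 fell. Among the constitutive members HSPA4 rose and HSPA14 fell, and HSPA8 and HSPA9 did not pass the test. The median difference of the members was 1.38, beside -0.03 over all genes. For each of the 10 members the 3 heat shocked arrays did not overlap with the 3 control arrays, which held for 31.3% of all genes.

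**Figure D2:**
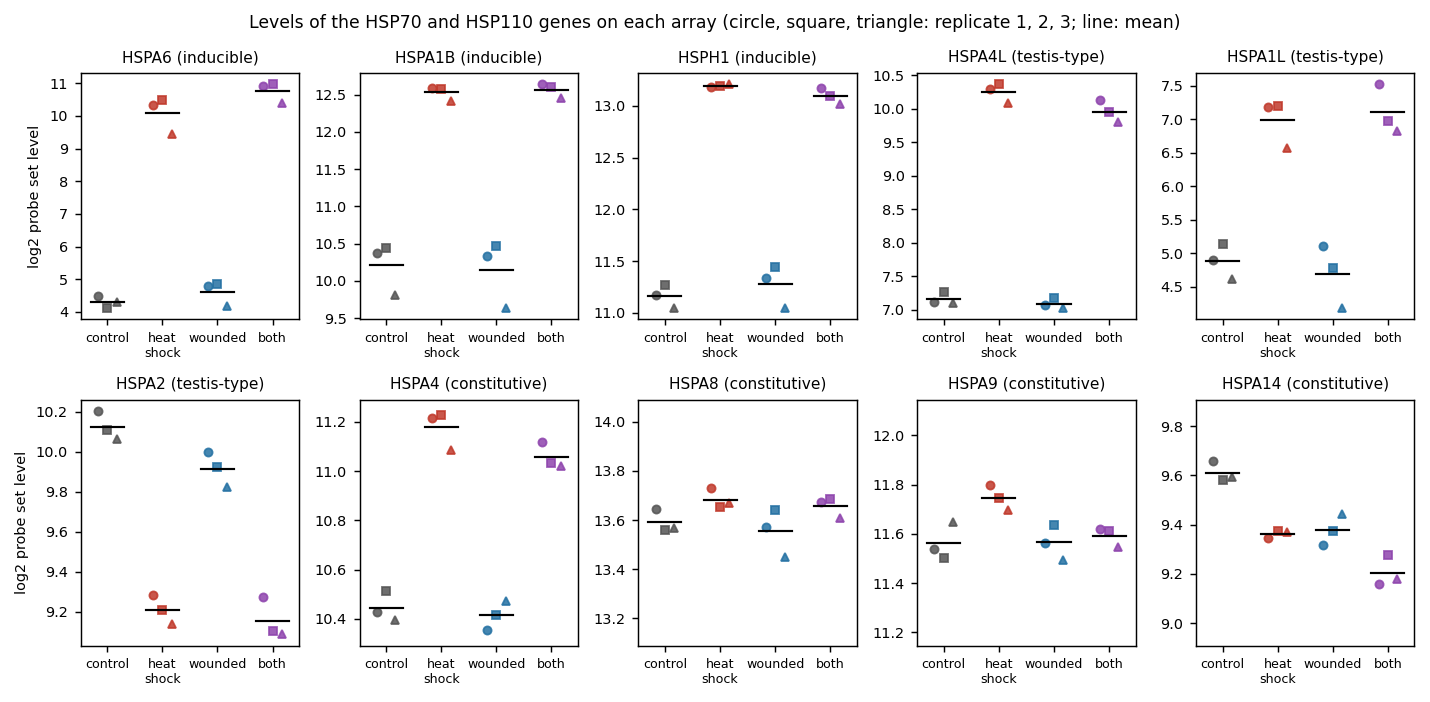
Log2 probe set level (y axis) of each member on every array, by group (x axis), with the replicate number as the symbol and the group mean as a line. The y axes differ between panels and span at least 1 log2 unit, and levels are not comparable between genes. All arrays of the heat shocked and both groups lie above those of control and wounded for HSPA6, HSPA1B, HSPH1, HSPA4L, HSPA1L and HSPA4, and below for HSPA2.

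HSPA6 encodes a strictly inducible HSP70 that has no counterpart in mice. Its log2 level was 4.48, 4.11 and 4.31 on the control arrays and 10.34, 10.48 and 9.46 on the heat shocked arrays. On the wounded arrays it was 4.79, 4.86 and 4.18, and on the arrays with both treatments 10.92, 10.96 and 10.40. The heated groups stood far above the others, and wounded overlapped with control. The difference of heat shock from control was 5.79 ± 0.26 (SE), a 55.3-fold change (adjusted p = 6.03e-08), and the highest of all 18132 genes. The control mean of 4.30 ± 0.19 (SD, n = 3) lay under 4.58, the upper quartile of 18 leukocyte, endothelial and germ cell markers in control. Background signal can compress differences at such levels, so the fold is approximate.

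HSPA1B encodes the major stress-inducible cytosolic HSP70. Its log2 level was 10.37, 10.44 and 9.81 in control and 12.59, 12.58 and 12.42 after heat shock. It was 10.34, 10.47 and 9.63 after wounding and 12.64, 12.60 and 12.45 after both. Wounded and control overlapped, and replicate 3 was the lowest array in each group. HSPA1B rose by 2.32 ± 0.20 after heat shock, a 4.99-fold change (adjusted p = 1.57e-05). HSPA1A and HSPA1B have nearly the same coding sequence, and the one single-gene probe set of HSPA1B carries the suffix that Affymetrix gives to probe sets with probes matching other transcripts. Its value cannot be assigned to HSPA1B alone.

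HSPH1 (HSP105) is the stress-inducible HSP110 exchange factor. Control arrays read 11.18, 11.27 and 11.05 on the log2 scale and heat shocked arrays 13.18, 13.19 and 13.21. Wounded arrays read 11.33, 11.44 and 11.05, and those with both treatments 13.17, 13.10 and 13.02. The heat shocked arrays had an SD of 0.01, and control and wounded overlapped. HSPH1 rose by 2.03 ± 0.10 after heat shock, a 4.08-fold change (adjusted p = 9.97e-08). All 8 of its probe sets rose, by 1.78 to 2.60.

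HSPA4L (APG-1) is an HSP110 exchange factor that is abundant in testis. Log2 levels were 7.11, 7.26 and 7.11 in control and 10.29, 10.36 and 10.09 after heat shock. They were 7.07, 7.17 and 7.02 after wounding and 10.13, 9.95 and 9.80 after both. The groups without heat overlapped with each other, as did the groups with heat. HSPA4L rose by 3.09 ± 0.10 after heat shock, an 8.51-fold change (adjusted p = 2.11e-09), the fourth in size among all genes. Its 3 probe sets rose by 2.93 to 3.15.

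HSPA1L encodes an HSP70 of spermatids. Its log2 level was 4.91, 5.13 and 4.61 in control and 7.19, 7.19 and 6.57 after heat shock. Wounded arrays read 5.11, 4.77 and 4.18, and those with both treatments 7.52, 6.97 and 6.83. Every heated array lay above every other array, and replicate 3 was lowest in each group. HSPA1L rose by 2.10 ± 0.25 after heat shock, a 4.29-fold change (adjusted p = 0.000199). Its means of 4.88 in control and 4.69 after wounding were near the marker level of 4.58, so the fold is approximate. It was read through 1 probe set, and its coding sequence is close to that of HSPA1A and HSPA1B. Whether these contribute to its signal was not tested.

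HSPA2 encodes an HSP70 needed for meiosis in male germ cells and also present in other tissues. Control arrays gave log2 levels of 10.21, 10.11 and 10.06 and heat shocked arrays 9.28, 9.21 and 9.14. Levels were 10.00, 9.92 and 9.82 after wounding and 9.27, 9.10 and 9.09 after both. The heated arrays were the lowest and control the highest, with wounded between them. HSPA2 fell by 0.92 ± 0.08 on the log2 scale after heat shock, a 1.89-fold decrease (adjusted p = 1.21e-05). It ranked 15 from the lowest difference of all genes.

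Germ cell markers were read beside the testis-type members. None of the 9 markers, which included DDX4, DAZL, SYCP3 and PRM1, was called in any of the 6 comparisons. After heat shock 12.9% of all genes were called. The mean log2 level of the markers was 3.17 to 3.34 across the arrays. Such levels are near background, so the lack of calls says little about these genes. The lowest marker in control was DAZL at 2.64 and the highest was PRM1 at 4.82. In bulk RNA fewer cells with a transcript and less RNA per cell cannot be told apart.

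HSPA4 (APG-2) is the constitutive HSP110 exchange factor. On the log2 scale it read 10.43, 10.51 and 10.40 in control and 11.22, 11.23 and 11.09 after heat shock. Wounded arrays read 10.35, 10.42 and 10.47, and those with both treatments 11.12, 11.03 and 11.02. Heated and unheated arrays did not overlap. HSPA4 rose by 0.73 ± 0.07 after heat shock, a 1.66-fold change (adjusted p = 2.39e-05). Its 4 probe sets rose by 0.73 to 1.25, so the probe set that stands for the gene had the smallest difference of the 4.

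HSPA8 (HSC70) is the abundant housekeeping HSP70 that strips clathrin from vesicles and serves chaperone-mediated autophagy. Its log2 level was 13.64, 13.56 and 13.57 in control and 13.73, 13.65 and 13.67 after heat shock. It was 13.57, 13.64 and 13.45 after wounding and 13.67, 13.68 and 13.61 after both. All values lay within a narrow range. The difference of heat shock from control was 0.09 ± 0.06 and did not pass the test (adjusted p = 0.434). Its 95% interval, which is not adjusted for the number of genes, ran from -0.05 to 0.23. HSPA6 and HSPA8 both carry elements of 3 units in their windows, and their log2 differences after heat shock were 5.79 and 0.09. Their control means were 4.30 and 13.59, far apart in signal. Whether dim or bright signal narrowed either difference was not tested.

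The probe sets of HSPA8 did not all behave alike. Of 9, the 5 with a mean log2 level of at least 9 had differences of 0.09 to 0.21 after heat shock, and none passed the test. The other 4 had mean levels of 3.24 to 4.73. Their differences ran from -0.67 to -0.40, and 3 of the 4 were called lower. After heat shock 8.82% of all probe sets were called, 4.24% higher and 4.58% lower. What the dim probe sets measure was not tested.

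HSPA9 (mortalin) is the HSP70 of the mitochondrial matrix, where it pulls proteins in through the inner membrane. Log2 levels were 11.54, 11.50 and 11.65 in control and 11.80, 11.75 and 11.70 after heat shock. Wounded arrays read 11.56, 11.64 and 11.49, and those with both treatments 11.62, 11.61 and 11.55. The heat shocked arrays were the highest, by a narrow margin. The difference from control was 0.18 ± 0.06 and did not pass the test (adjusted p = 0.0866). It passed under 4 other settings of scaling, filter, probe sets or spread. None of its 5 probe sets was called, with differences of 0.09 to 0.24.

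HSPA14 encodes an HSP70 that works with DNAJC2 at the ribosome. Control arrays read 9.66, 9.58 and 9.59 on the log2 scale and heat shocked arrays 9.35, 9.37 and 9.37. Levels were 9.32, 9.37 and 9.44 after wounding and 9.16, 9.28 and 9.18 after both. All control arrays lay above the others, and all arrays with both treatments lay below the others. HSPA14 fell by 0.25 ± 0.06 after heat shock (adjusted p = 0.0178). The call was lost without control replicate 1 (adjusted p = 0.0808) and without heat shock replicate 1 (adjusted p = 0.0670). It was also lost with cyclic loess (adjusted p = 0.0556) and with replicates 1 and 2 averaged (adjusted p = 0.138). The differences of its 4 probe sets ran from -0.33 to -0.20. Of these 2 were called lower, beside 4.58% of all probe sets, and 2 did not pass the test.

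**Figure D3:**
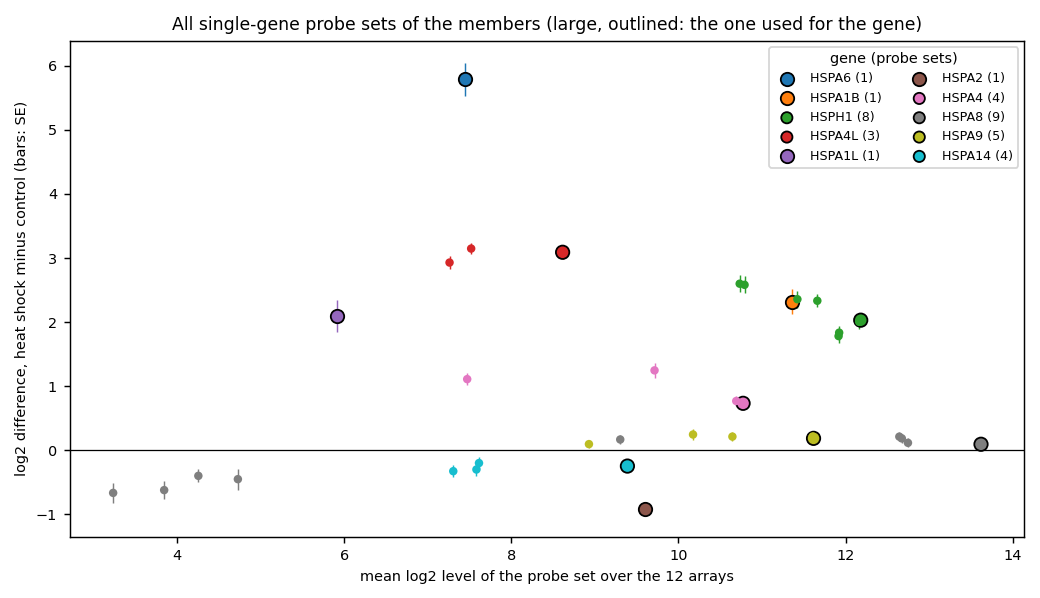
Log2 difference of heat shock from control (y axis, bars are SE) against the mean log2 level over the 12 arrays (x axis), for all 37 single-gene probe sets of the members. The large outlined point is the probe set used for the gene, the number in the key is the count of probe sets, and the 4 dim probe sets of HSPA8 lie at the lower left.

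Wounding alone called none of the 10 members in limma, beside 3.57% of all genes. At an unadjusted p under 0.05 there were 2 members and 2388 genes, and these members were HSPA14 and HSPA2. HSPA14 differed by -0.23 ± 0.06 (adjusted p = 0.0590) and HSPA2 by -0.21 ± 0.08 (adjusted p = 0.215), and for both the wounded arrays lay below all control arrays. The other 8 members overlapped between these groups, and 21.9% of all genes did not overlap. HSPA14 passed the test under 3 alternatives: without replicate 2 of both treatments (adjusted p = 0.0472), with the filter on low levels (0.0223) and with trend and robust eBayes (0.0131). The members' median was -0.05, beside -0.03 over all genes.

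The inducible members gave wide intervals after wounding. HSPA6 differed from control by 0.31 ± 0.26 (95% interval -0.25 to 0.87, adjusted p = 0.703). HSPA1B differed by -0.06 ± 0.20 (-0.50 to 0.37), and HSPH1 by 0.11 ± 0.10 (-0.09 to 0.32). These intervals do not show that levels were equal. HSPA6 was near background in both groups, with means of 4.30 and 4.61 beside the marker level of 4.58, so its interval says little about the gene. HSPA8 had a narrower one, from -0.18 to 0.10, and HSPA9 ran from -0.14 to 0.14.

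After both treatments 6 members were higher than control and 2 lower, beside 8.66% and 14.4% of all genes, 23.1% in either direction (37.6% of these calls higher, and 50.1% with cyclic loess). These were the genes called after heat shock alone, in the same directions. HSPA6 rose by 6.46 ± 0.26 (87.9-fold, approximate for the same reason as above, adjusted p = 1.93e-08), HSPA4L by 2.80 and HSPA1B by 2.35. HSPA1L rose by 2.22 (approximate, since its control mean was near background), HSPH1 by 1.93 and HSPA4 by 0.61. HSPA2 fell by 0.97 and HSPA14 by 0.41 (adjusted p = 0.000391). HSPA8 differed by 0.07 and HSPA9 by 0.03, and neither passed the test. The comparisons with control share the control arrays, so their values are set side by side and not counted as independent.

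Against wounding, both treatments gave 6 members higher and 1 lower, beside 6.31% and 8.6% of all genes, 14.9% in either direction (42.3% of these calls higher, and 53.1% with cyclic loess). HSPA6 rose by 6.15 (70.9-fold), HSPA4L by 2.87 and HSPA1L and HSPA1B by 2.42 each. The values of HSPA6 and HSPA1L are approximate, since their wounded means were near background. HSPH1 rose by 1.82 and HSPA4 by 0.64, and HSPA2 fell by 0.76. HSPA14 differed by -0.17 (adjusted p = 0.0801).

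Both treatments against heat shock alone called none of the 10 members in limma, beside 4.3% of all genes. At an unadjusted p under 0.05 there were 4 members and 3164 genes. HSPA6 differed by 0.67 ± 0.26 (95% interval 0.11 to 1.22, adjusted p = 0.192), with 10.40 as the lowest array after both and 10.48 as the highest after heat shock alone. HSPA4L differed by -0.29 ± 0.10 (adjusted p = 0.128). HSPA14 differed by -0.16 (adjusted p = 0.194) and HSPA9 by -0.15 (adjusted p = 0.238). Of the 3 probe sets of HSPA4L 1 was called lower, by 0.37, beside 0.972% of all probe sets.

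The interaction asked whether the difference made by heat shock was the same with and without wounding. None of the 10 members was called in limma, none had an unadjusted p under 0.05, and 1302 genes did. Of all genes 0.00552% were called. HSPA6 had an interaction of 0.36 ± 0.36 (95% interval -0.43 to 1.15), HSPA1L of 0.32 ± 0.36 and HSPA4L of -0.22 ± 0.14. The lowest adjusted p among the members was 0.773, of HSPA9. The interval of HSPA1L ran from -0.45 to 1.09, so interactions of this size were not excluded at this number of arrays.

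**Figure D4:**
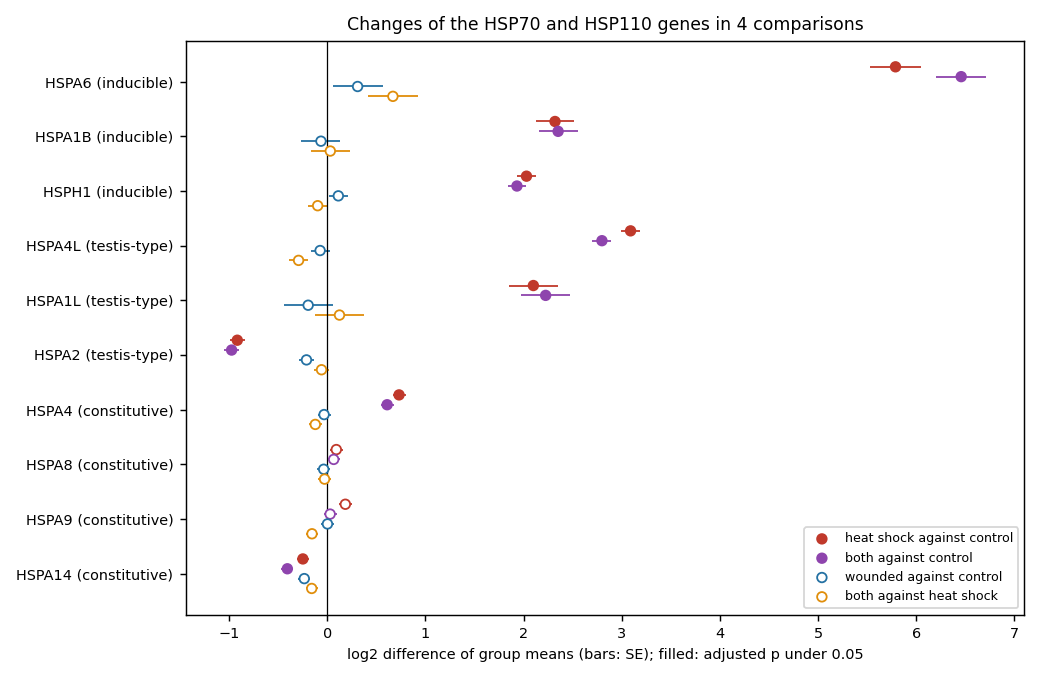
Log2 difference of group means (x axis, bars are SE) for each member (y axis) in 4 comparisons, with filled points for an adjusted p under 0.05. The filled points belong to comparisons of heated with control groups, and no point of the comparisons of wounding with control or of both with heat shock is filled.

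The order of the group means was read for each member. In all members but HSPA2 and HSPA14 the means of both heated groups lay above those of both unheated groups. For HSPA8 and HSPA9 the arrays of these groups overlapped. Within the heated pair and within the unheated pair no difference of means passed the test. HSPA2 had the order both, heat shock, wounded and control from lowest to highest, with means of 9.15, 9.21, 9.92 and 10.13. HSPA14 had the same order, with means of 9.21, 9.36, 9.38 and 9.61. For both genes neither both treatments against heat shock nor wounding against control passed the test, and heat shock was not tested against wounding. For HSPA8 and HSPA9 no neighbouring means passed the test.

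J proteins and other partners were counted from lists of genes that work with HSP70. Of 8 cytosolic J proteins 5 were called higher after heat shock and none lower, beside 4.93% of all genes called higher. The list median was 0.82, beside -0.03 over all genes. DNAJB1, the main stress-inducible J protein, rose by 1.98, DNAJB6 by 1.31, and DNAJB4 and DNAJA1 by 0.94 each. After both treatments 7 of the 8 were higher than control, beside 8.66% of all genes.

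Of 6 nucleotide exchange factors outside HSP110, 1 was called higher and 1 lower after heat shock, beside 4.93% and 7.92% of all genes. BAG3, which links HSP70 to selective autophagy, rose by 2.74 ± 0.11, and BAG4 fell by 0.27 ± 0.07 (adjusted p = 0.0231). Among 6 genes of the step from HSP70 to HSP90 and the ubiquitin ligase STUB1, 5 rose, beside the same 4.93%. CHORDC1, an HSP90 co-chaperone, rose by 1.70, STIP1, which bridges HSP70 and HSP90, by 0.92, HSP90AA1 by 0.55 and HSP90AB1 by 0.44.

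The lists around HSPA8 and HSPA9 gave no call after heat shock. None of the 6 measured partners of HSPA8 and none of the 7 of mitochondrial HSP70 was called, beside 12.9% of all genes. The list medians were -0.06 and -0.11, beside -0.03 over all genes. Of the 5 other HSP70 superfamily genes none was called, and HSPA5, the HSP70 of the endoplasmic reticulum, differed by 0.17 (adjusted p = 0.150). The 3 genes measured on the list of heat shock factors and their binding protein gave no call, and the mRNA of HSF1 differed by 0.15 (adjusted p = 0.266).

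After wounding 1 of the 8 J proteins and 1 of the 6 exchange factors were called and none of the other lists, beside 3.57% of all genes. DNAJB2 rose by 0.32 (adjusted p = 0.0390) and BAG2 fell by 0.29 (adjusted p = 0.0341). After both treatments against heat shock alone DNAJB5 rose by 0.67, HSPA12A by 0.31, and BAG2 fell by 0.40. HSPA12A is a distant HSP70 relative, and the rest of the measured partners were not called in that comparison, beside 4.3% of all genes called.

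For each member the genes with the most similar profile over the 12 arrays, which fall in 4 groups, were taken by Pearson correlation. These values are descriptions, since the arrays share the treatments. For HSPA6 they were BAG3 (0.994), HSPB8 and DNAJB6 (0.993 each), and for HSPA1B DNAJA1 (0.993), CHORDC1 (0.992) and HSPH1 (0.991). For HSPH1 they were BAG3 and DEDD2 (0.997 each) and HSPA4L (0.994). For HSPA4L they were SERPINH1 (0.998), CACYBP and MICB (0.996 each), and for HSPA4 DMRT1 and DOCK10 (0.993 each) and HSPA4L (0.992).

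The members that fell had other neighbours. HSPA2 was most like HELLS (0.983), OXSR1 (0.982) and KATNAL1 (0.980), and HSPA14 was most like CDCA7 (0.973), MCM10 (0.966) and TUBG1 (0.951). HSPA1L was most like GPRIN3 (0.989), HSPA1B and DNAJA1 (0.985 each). HSPA8 (ENTPD4, 0.908) and HSPA9 (CRYZ, 0.922) had lower correlations with their nearest genes.

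Replicate 3 was the lowest array in all 4 groups for HSPA1B, HSPA1L, HSPA2 and HSPA4L, 4 of the 10 members (40%), beside 679 of all 18132 genes (3.74%). Its mean deviation from the group means was -0.37 for HSPA1L, -0.35 for HSPA6, -0.28 for HSPA1B and -0.11 for HSPA4L. HSPA6 was lowest there in 3 groups. The shared tag S3 of replicate 3 is given in the labels without a meaning, and its part in these values was not tested. With replicates 1 and 2 averaged, 7 of the 10 members were called after heat shock against control, beside 919 of 18132 genes. HSPA14 was lost there (adjusted p = 0.138).

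**Figure D5:**
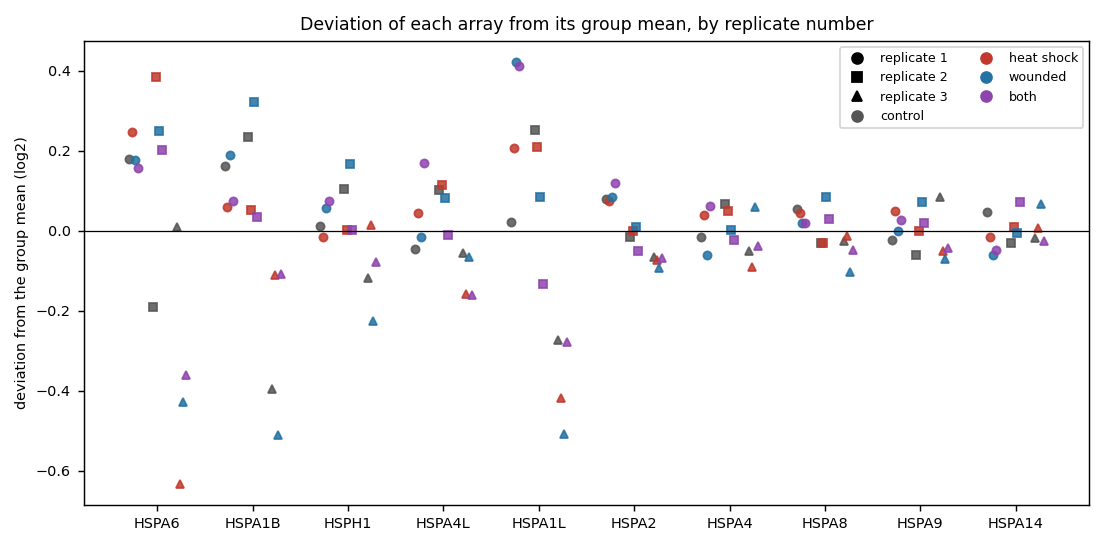
Deviation of each array from its group mean in log2 units (y axis) for each member (x axis), with replicate number as the symbol and group as the colour. The triangles of replicate 3 lie below 0 in all groups for HSPA1B, HSPA1L, HSPA2 and HSPA4L.

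The array medians of the log2 levels were 5.3 to 5.32, and the number of arrays limits the precision. The interquartile range was 3.98 for replicate 2 of both treatments and 4.13 to 4.24 for the others. Without that array 8, 7 and 0 members were called for both treatments against control, wounding and heat shock, as with it, and HSPA6 rose by 6.36 against control. Epithelial markers had mean levels of 11.4 to 11.54 across arrays. Those of fibroblasts (3.45 to 3.72), endothelium (3.69 to 4.15) and leukocytes (4.05 to 4.31) were low. The alveolar type II markers had means of 4.69 to 5.04, and in control they ran from SFTPA1, a surfactant protein gene, at 2.26 to ABCA3, a lipid transporter gene, at 7.65, with a median of 5.02. Among these marker lists COL3A1 alone was called after heat shock, at 3.44 against 3.79 in control. After both treatments against control NKX2-1 was higher by 0.41, and CDH1 fell by 0.26 and ABCA3 by 0.27. The part of these markers in the members' values was not tested.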

How the data were processed

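Each of the 12 Affymetrix PrimeView arrays received 100 ng of total RNA, extracted in Trizol and processed with the 3' IVT Express kit, as the labels' protocols state. The authors deposited log2 probe set values. RMA and Affymetrix Expression Console are named in the submitters' processing notes, with no versions. RMA sets the probes of all arrays to 1 distribution before they are summarized into probe sets. The deposited probe set values differed somewhat between arrays, with interquartile ranges of 3.98 to 4.24. Dim probe sets can be compressed near background. That the values are log2 was judged from their range. Scanner files were not used here.

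Of 49293 probe sets 1 with a missing value was left out, 44987 had 1 gene symbol and were used, 1832 had several and 2473 were not listed in the platform annotation. Each of 18132 genes was read through the probe set whose mean level was highest. The 4 group means were fitted together in limma 3.58.1 under R 4.3.3 (default eBayes, no replicate block). Calls needed a Benjamini-Hochberg adjusted p under 0.05 over all genes of a comparison, and probe sets were tested in a fit of their own. Every adjusted p comes from limma. Values after ± are SE for differences and SD for levels. The fit was tested on simulated data.

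The members, lists and tests were chosen with earlier results of these data known. All members were named, with up to 4 called genes per other list by size of change, HSF1 and HSPA5, and the 3 genes most correlated with each member. HSPA1A, HSF2 and PAM16 are not analysed here. Same-numbered arrays did not all deviate together (correlations -0.187 to 0.234 for the same number and -0.194 to 0.243 for different numbers), and the labels state no pairing, so numbers were not taken as pairs. Replicate 3, with a tag of its own, was low in every group for some members. Alternatives were 3 scalings, a filter on low levels, the mean of the probe sets, trend and robust eBayes, groups compared alone, replicates 1 and 2 averaged, a replicate block and leaving out each array. Promoter windows came from RefSeq (GRCh38.p14), searched with Python 3.11.15 and aligned with Biopython 1.88.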

Additional observations from a re-analysis of the deposited data

Results flagged for a closer look

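Probe sets annotated to several genes were kept out of the gene tests, and 5 of them carry a member's symbol together with that of another gene. These 5 are all the probe sets of this kind and were taken by symbol. They were flagged for their heat shock signal, which lies outside the gene tests. Since they were read on the same arrays and share transcripts with the members, they are not separate evidence. After heat shock against control the 4 annotated to HSPA1A and HSPA1B differed by 2.15, 1.97, 2.50 and 1.24 on the log2 scale, and the 1 annotated to HSPA6 and HSPA7 differed by 5.96. All 5 were called higher in limma (adjusted p from 1.85e-08 to 1.14e-05), beside 4.24% of all probe sets. None was called for wounding against control (adjusted p from 0.497 to 0.969) or for both treatments against heat shock (0.234 to 0.937). These values belong to no single gene.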

How the results depend on the processing

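Of 1250 changes of members under the alternatives, 1206 kept their direction and side of the threshold, 4 called changes were lost, 10 were gained, and 30 that were not called in either fit changed sign. The 4 lost were all HSPA14 after heat shock against control, with adjusted p values of 0.0556 (cyclic loess), 0.138 (replicates 1 and 2 averaged), 0.0808 (without control replicate 1) and 0.0670 (without heat shock replicate 1). The cause was not tested. Of the 10 gained, 4 were HSPA9 after heat shock (adjusted p from 0.00859 to 0.0458), 1 was HSPA4L for both treatments against heat shock (0.0483, trend and robust eBayes), and 5 were HSPA14 in the comparisons of wounding with control and of both treatments with wounding.

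With the mean of the probe sets HSPA8 changed sign after heat shock (-0.15), for both treatments against control (-0.074), wounding (-0.052) and heat shock (0.079), and HSPA9 after wounding (-0.012). This mean includes the dim probe sets of HSPA8. With replicates 1 and 2 averaged HSPA9 changed sign after wounding (-0.036) and for both treatments against control (-0.0023), and with cyclic loess so did the interaction of HSPA8 (-0.0012). With 1 array left out, the changes after wounding ran from -0.26 to 0.19 for HSPA1B, -0.061 to 0.0016 for HSPA4, -0.078 to 0.016 for HSPA8, -0.033 to 0.045 for HSPA9 and -0.41 to 0.060 for HSPA1L. Those of HSPA9 ran from -0.00062 to 0.072 for both treatments against control and from -0.0083 to 0.063 against wounding. For both treatments against heat shock they ran from -0.024 to 0.086 for HSPA1B and -0.084 to 0.26 for HSPA1L, and the interactions from -0.16 to 0.29 for HSPA1B and -0.043 to 0.051 for HSPA8.

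After wounding 1 member was called with the filter on low levels, beside 789 of 11768 genes. Trend and robust eBayes also called 1, beside 866 of 18132 genes. With 1 array left out the count was 0 to 1, beside 306 to 722 genes. For both treatments against heat shock trend and robust eBayes called 1 member, beside 1123 genes. Averaging replicates 1 and 2, which leaves fewer values, gave 919, 224, 2475, 1104 and 333 genes called for heat shock, wounding and both treatments against control and for both treatments against wounding and against heat shock, where all arrays gave 2330, 648, 4180, 2704 and 779. The groups compared alone gave 1663 and 300 for the last 2 comparisons. The interaction called 1 gene, 0 with the filter, the mean of the probe sets or replicates averaged, 2 with trend and robust eBayes, and 1 to 2 with 1 array left out. With 1 array left out the counts ran from 1438 to 2594, 306 to 722, 3088 to 4400, 1649 to 2936 and 498 to 790, and the lowest came without heat shock replicate 1, wounded replicate 2, control replicate 1, wounded replicate 1 and replicate 2 of both treatments. Beside these, a count moved by over 1.5 times without control replicate 1 or 2 (heat shock and wounding against control), without control replicate 3 or wounded replicate 1 (wounding against control), and without heat shock replicate 2 (both treatments against heat shock). With the replicate block 8, 0, 8, 7, 0 and 0 members were called, as without it, and it changed no other call of a member. Of all genes 2370, 639, 4230, 2728, 817 and 1 were called with it. Across groups the arrays shared a number and the tag S2 or S3, with no stated meaning. For 8 of 12 arrays, deviations from the group mean correlated more, on average, with same-numbered arrays of other groups than with either other number. That is a hint from the data and not from the design, and it was not compared with chance. Dim levels limit HSPA6 and HSPA1L in the groups without heat.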
